A study of Mus musculus with 30 samples.

Results

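Tumors that formed in the mouse cortex after injection of a SYN1-CRE construct were compared with normal mouse cortex. The SYN1 tumors were 4 arrays and normal cortex 4 arrays, 8 of the 30 arrays of the study, and all 19938 genes with a probe set that names 1 symbol were compared. In the SYN1 tumors the Syn1 promoter, which is active in neurons, drove the recombinase Cre. The normal cortex arrays carry no promoter in the labels. A further group, 4 cortex tumors that followed a GFAP-CRE construct with the promoter of an astrocyte gene, is used below to show where SYN1 tumors differed from other cortex tumors. Where Cre acted was not measured on these arrays. The labels give no strain, age, cassette beside the promoter or treatment for any of these groups. They do not say whether the arrays of a group came from separate animals. The p-values thus reflect no more than the spread among arrays within groups, which the fit pooled over the 7 groups of all 30 arrays. Values are log2 signal of total RNA on Affymetrix Mouse Gene 1.0 ST arrays, and a difference is the mean of the SYN1 tumors minus the mean of normal cortex with its standard error (SE) from a limma fit.

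Glioblastoma is a fast-growing brain tumor whose cells can carry features of neural progenitors, of glia or of mesenchyme. Such tumors displace neurons, remodel the extracellular matrix and draw in macrophages from the blood beside the microglia that live in the brain. Cre driven by a neuronal promoter recombines floxed genes in cells where that promoter is active, and the promoter says nothing of which genes the resulting tumor keeps on.

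The array medians lay between 7.19 and 7.30 in SYN1 tumors and between 7.18 and 7.2 in normal cortex. Pairs of SYN1 tumors correlated at 0.956 to 0.986 over all genes, pairs of normal arrays at 0.994 to 0.996, and a SYN1 tumor with a normal array at 0.796 to 0.874. The median SD of a gene was 0.215 among SYN1 tumors and 0.0991 in normal cortex. The number of arrays limits the precision. Sex-linked genes split the arrays within normal cortex. Xist, the RNA that silences an X chromosome in female cells, had 11.65, 11.31, 11.09 and 11.24 in SYN1 tumors 1 to 4, against 11.17 in normal cortex 1 and 5.96, 5.83 and 5.49 in normal cortex 2 to 4. Eif2s3y, a Y-linked translation factor gene, had 5.02, 4.34, 4.27 and 4.35 in SYN1 tumors, against 4.75 in normal cortex 1 and 9.05, 8.97 and 9.0 in normal cortex 2 to 4. Of the 4 sex-linked genes measured Xist was called higher and Eif2s3y, Kdm5d and Uty lower, with groups that overlapped through normal cortex 1. All 4 SYN1 tumors were of the high Xist type, while 3 of the normal arrays and all 4 GFAP cortex tumors were of the low type.

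SYN1 tumors differed from normal cortex in 7723 genes at limma adjusted p under 0.05, which is 38.7% of those tested. Of these, 3627 were higher (18.2%) and 4096 lower (20.5%) in SYN1 tumors, and the median difference over all genes was -0.04. The 4 tumor arrays did not overlap the 4 normal arrays for 9760 genes (49.0%), of which 4606 were higher (23.1%) and 5154 lower (25.9%). At least an 8-fold difference was reached by 178 called genes that were higher and 224 that were lower. Counts of the gene lists below are to be read beside the 18.2% higher and 20.5% lower over all genes.

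The 15 genes with the largest positive differences had products of many kinds, among them 2 annexins. AA467197, which codes for a small mitochondrial protein, had 11.38, 11.99, 12.25 and 11.45 in SYN1 tumors, against 6.26, 6.8, 6.22 and 6.99 in normal cortex, a difference of 5.20 ± 0.80 (SE, limma adjusted p = 1.4e-05). Its tumor arrays lay within a range of less than 1 and stood far above each normal array. Thbs1, which codes for the matrix glycoprotein thrombospondin 1, had 13.10, 12.21, 12.66 and 12.48 in SYN1 tumors, against 7.51, 8.0, 7.11 and 7.99 in normal cortex, and rose by 4.96 ± 0.65 (limma adjusted p = 2.35e-06). Timp1, an inhibitor of matrix metalloproteinases, had 12.27, 12.23, 12.59 and 12.18 in SYN1 tumors, against 6.37, 8.05, 6.63 and 8.73 in normal cortex (difference 4.87 ± 0.62, limma adjusted p = 1.64e-06). The tumors agreed closely for Timp1, whereas normal cortex 2 and 4 were higher than normal cortex 1 and 3. Grem1, a secreted BMP antagonist, had 12.86, 12.41, 12.80 and 12.62 in SYN1 tumors, against 7.58, 7.98, 7.85 and 8.36 in normal cortex (difference 4.73 ± 0.83, limma adjusted p = 5.54e-05). The other genes among the 15 largest were Dynap (5.04), Anxa1 (4.88), Chrna1 (4.86), Fndc3c1 (4.73), the NKG2D ligand gene Raet1d (4.70), the orphan receptor gene Gpr149 (4.65), S100a6 (4.62), Myof (4.52), which takes part in membrane repair, Anxa2 (4.50), the decoy receptor gene Tnfrsf23 (4.48) and Emp1 (4.39). For each of the 15 genes every tumor array lay above every normal array, as the naming rule requires.

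The genes with the largest negative differences included Lamp5, Neurod6 and Sst, which mark classes of cortical neurons. Lamp5, a membrane protein of a class of interneurons and of superficial projection neurons, had 7.16, 7.81, 6.66 and 8.37 in SYN1 tumors, against 12.39, 12.37, 12.17 and 12.003 in normal cortex, and fell by 4.74 ± 0.66 (limma adjusted p = 4.46e-06). Neurod6, a transcription factor of projection neurons, had 5.19, 5.46, 4.93 and 5.18 in SYN1 tumors, against 9.84, 9.5, 9.51 and 9.63 in normal cortex, and fell by 4.43 ± 0.51 (limma adjusted p = 5.34e-07). Sst, the neuropeptide somatostatin, had 7.83, 8.82, 8.02 and 8.72 in SYN1 tumors, against 12.82, 12.61, 12.31 and 12.61 in normal cortex, and fell by 4.24 ± 0.56 (limma adjusted p = 2.21e-06). The groups stood apart for all 3 genes, with Neurod6 nearly level among tumors and Lamp5 more spread. The rest of the 15 were the potassium channel genes Kcnh7 (-4.18) and Kcnv1 (-4.03), Mal2 (-4.15), the calcium sensor gene Hpcal4 (-4.11), Rgs4 (-4.07), the plasma membrane calcium pump gene Atp2b2 (-4.06), AI593442 (-4.05), the postsynaptic gene Ddn (-4.03), the vesicle gene Sv2b (-4.00), Fam81a (-3.98), Ano3 (-3.98) and the kinase gene Camk4 (-3.96). In bulk tissue, fewer cells of a type and less RNA per cell cannot be told apart.

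Of 20 measured genes of synaptic vesicles and release, 19 were lower and none higher, with a median difference of -3.17. Syn1, the vesicle gene whose promoter drove Cre, had 9.29, 9.75, 9.14 and 9.54 in SYN1 tumors, against 12.78, 12.63, 12.60 and 12.52 in normal cortex, and fell by 3.20 ± 0.59 (limma adjusted p = 0.000107). Snap25, a SNARE protein of vesicle fusion, had 10.95, 11.36, 9.77 and 11.11 in SYN1 tumors, against 14.05, 14.12, 13.78 and 13.92 in normal cortex (difference -3.17 ± 0.63, limma adjusted p = 0.000244). Tumor 3 was the lowest SYN1 tumor for both genes, and neither group overlapped the other. The calcium sensor gene Syt1 (-3.16), Syp (-3.42), and Slc17a7 (-3.87), which loads glutamate into vesicles, fell likewise. Slc17a6, the second vesicular glutamate transporter, was not called at -1.40.

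Of 19 genes of glutamate receptors and the postsynaptic scaffold, 18 were lower (median -2.92). Grin2a, an NMDA receptor subunit, had 7.69, 8.17, 7.04 and 7.44 in SYN1 tumors, against 11.28, 11.08, 11.24 and 11.11 in normal cortex, and fell by 3.59 ± 0.58 (limma adjusted p = 2.2e-05). Gria2 (-3.13) and Camk2a (-3.07) fell too, while the scaffold gene Shank2 differed by only -0.01. The AMPA receptor subunit gene Gria3 had 10.02, 9.21, 7.06 and 9.86 in SYN1 tumors, against 11.93, 11.73, 11.73 and 11.76 in normal cortex, with tumor 3 well below the other 3 tumors. Of 9 GABA-A receptor subunit genes 8 were lower (median -3.05), among them Gabra4 (-3.76), Gabra5 (-3.69) and Gabrb2 (-3.63). All 24 voltage-gated channel genes measured were lower (median -2.66), with Scn8a (-3.44) and Scn2a (-3.68) among the sodium channels and Cacna1e (-3.26) among the calcium channels.

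Transcription factors that specify cortical neurons followed. Of 15 projection neuron factors, 13 were lower (median -1.81). Tbr1, a factor of deep-layer projection neurons, had 6.30, 7.48, 6.72 and 6.85 in SYN1 tumors, against 10.995, 10.76, 10.67 and 10.69 in normal cortex, and fell by 3.94 ± 0.53 (limma adjusted p = 3.14e-06). Bcl11b, a factor of neurons that project below the cortex, had 7.38, 7.51, 7.56 and 7.47 in SYN1 tumors, against 9.23, 9.02, 9.59 and 9.31 in normal cortex (difference -1.81 ± 0.31, limma adjusted p = 5.24e-05). Cux1 (-0.21) and Etv1 (-0.18) were not called. Of 20 interneuron genes, 14 were lower and none higher (median -1.56), including the GABA synthesis gene Gad1 (-2.71), Pvalb (-2.79), which codes for the calcium buffer parvalbumin, and Vip (-2.22). Npy (-0.67), Reln (-0.91), Calb2 (-1.0), Tac1 (-2.06), Lhx6 (-0.16) and Dlx2 (-0.12) did not pass. Pan-neuronal RNA-binding and cytoskeletal genes were lower for 18 of 20 (median -2.22), with Rbfox3, known as NeuN, at -3.33 ± 0.56 (limma adjusted p = 3.75e-05). The exceptions were Nefl and Stmn2. Nefl, the light neurofilament subunit, had 12.58, 10.03, 9.19 and 11.97 in SYN1 tumors, against 12.38, 12.24, 12.12 and 12.13 in normal cortex, so that tumor 1 lay above every normal array and tumors 2 and 3 far below them (difference -1.28 ± 0.58, limma adjusted p = 0.0862).

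**Figure D1:**
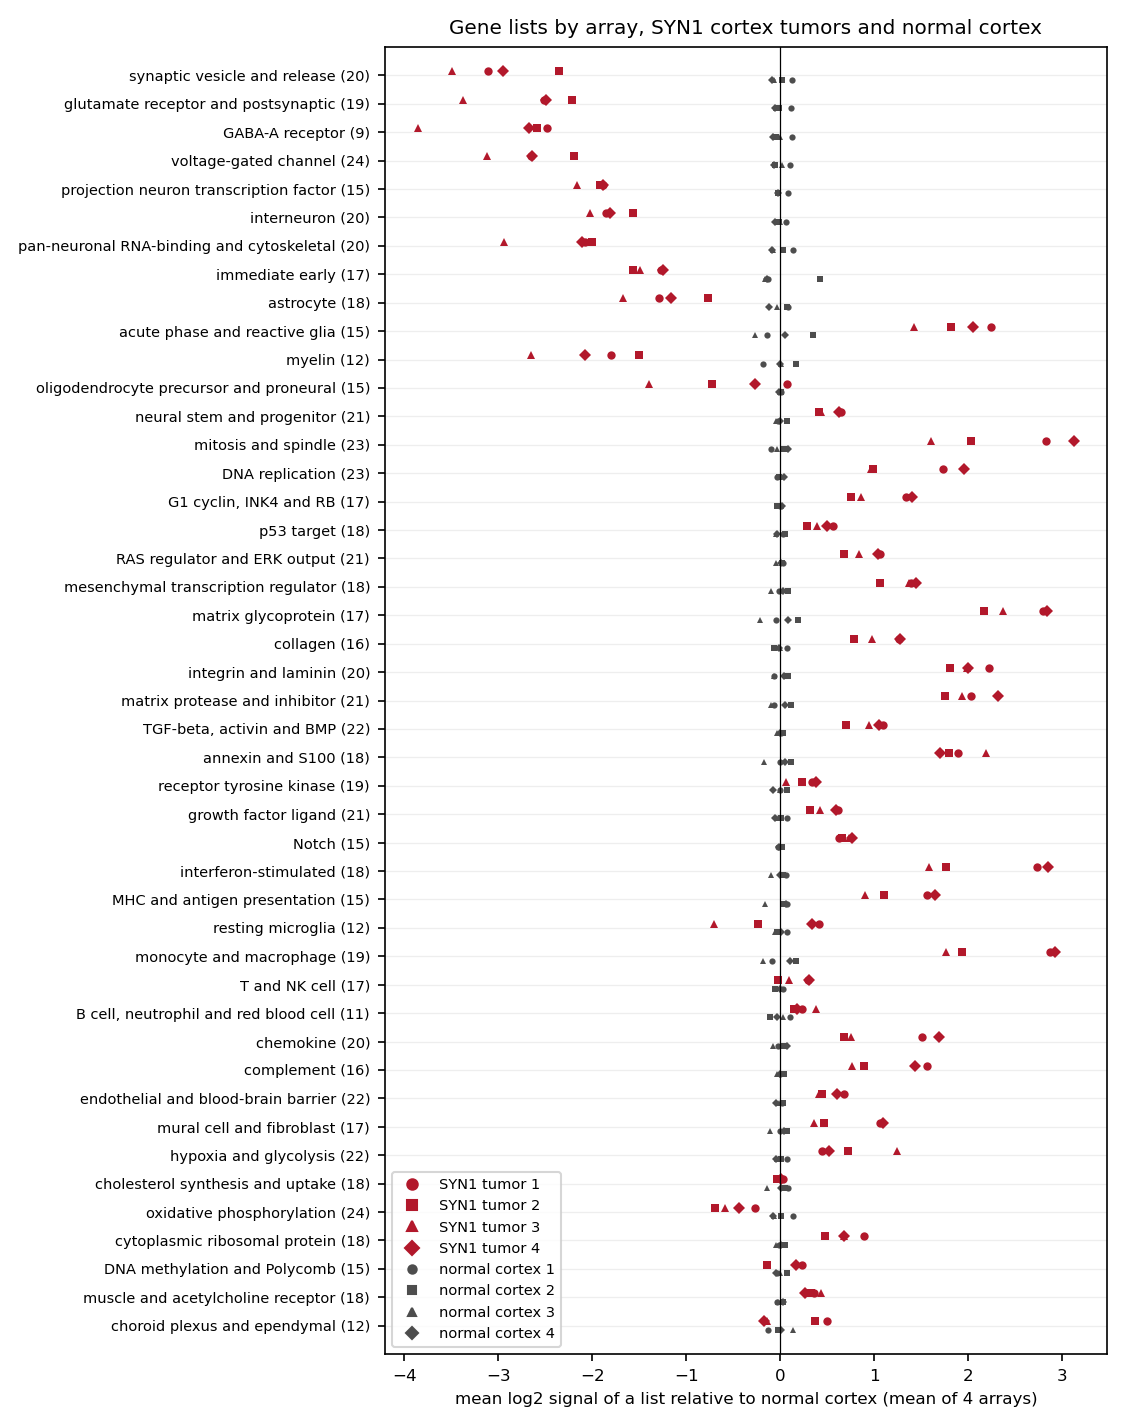
Mean log2 signal of the measured genes of 45 lists on each array, relative to the mean of the 4 normal cortex arrays (x axis), with the number of genes in brackets. Red symbols are SYN1 tumors 1 to 4 and grey symbols normal cortex 1 to 4; the neuron lists lie to the left, the cell cycle, matrix, interferon and macrophage lists to the right, and tumor 3 (triangle) is lowest in the synapse lists.

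Immediate early genes, which neurons switch on with activity, were lower for 12 of 17 and higher for 1 (median -1.46). Arc, which acts at active synapses, had 8.25, 8.50, 8.80 and 8.14 in SYN1 tumors, against 11.32, 12.02, 11.40 and 11.36 in normal cortex, and fell by 3.10 ± 0.36 (limma adjusted p = 5.67e-07). Normal cortex 2 was the highest array for Arc and also for Npas4 (difference -2.63) and Fos (-0.97). Jun, a subunit of the AP-1 transcription factor, was the gene that rose, by 0.89 ± 0.32 (limma adjusted p = 0.0283).

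Glial genes did not move as 1 group. Of 18 astrocyte genes 10 were lower, 1 was higher and 7 were not called (median -1.47). Slc1a2, the main glutamate transporter of astrocytes, had 9.89, 10.45, 9.05 and 10.44 in SYN1 tumors, against 12.88, 12.88, 12.78 and 12.72 in normal cortex (difference -2.86 ± 0.68, limma adjusted p = 0.00129). Gfap had 10.56, 10.47, 9.31 and 10.20 in SYN1 tumors, against 9.02, 9.59, 8.80 and 8.96 in normal cortex, with tumor 3 inside the normal range (difference 1.04 ± 0.67, limma adjusted p = 0.25). Aldh1l1 (-0.27), Aqp4 (-0.63) and the gap junction gene Gja1 (0.23) were not called either, and Sox9, a factor of glia and progenitors, rose by 0.93. Genes of the acute phase and of reactive glia were higher for 12 of 15 (median 1.92). Lcn2, an iron-carrier binding protein, had 12.37, 11.19, 10.46 and 11.63 in SYN1 tumors, against 6.86, 8.81, 7.14 and 8.07 in normal cortex (difference 3.69 ± 0.71, limma adjusted p = 0.000148). Vim, the intermediate filament vimentin, rose by 2.08 ± 0.28, with 13.97, 13.16, 13.43 and 13.29 in SYN1 tumors, against 10.89, 11.97, 10.84 and 11.82 in normal cortex (limma adjusted p = 3.14e-06). Chil1, a secreted lectin, had 12.33, 11.66, 8.60 and 10.03 in SYN1 tumors, against 8.99, 9.62, 8.59 and 9.06 in normal cortex, with tumor 3 at the normal level and tumors 1 and 2 well above it (limma adjusted p = 0.146).

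All 12 myelin genes were lower (median -2.18). Mbp, myelin basic protein, had 9.43, 10.07, 8.74 and 9.57 in SYN1 tumors, against 11.60, 11.84, 11.72 and 11.74 in normal cortex, and fell by 2.27 ± 0.48 (limma adjusted p = 0.000442). Of 15 genes of oligodendrocyte precursors and the proneural class, 4 were lower, 1 was higher and 10 were not called (median -0.29). Over all genes 20.5% were lower and 18.2% higher. The lower ones were Bcan, Ncan and Tnr, which code for matrix molecules of the brain, and the receptor gene Gpr17. Pdgfra, the PDGF receptor of precursors, had 11.74, 9.5, 9.41 and 10.54 in SYN1 tumors, against 9.48, 9.27, 9.35 and 9.31 in normal cortex, so that tumors 1 and 4 were high and tumors 2 and 3 at the normal level (limma adjusted p = 0.106). Olig2, which marks the lineage, was at 8.49, 7.86, 6.79 and 8.13 in SYN1 tumors, against 8.58, 8.79, 8.68 and 8.71 in normal cortex (limma adjusted p = 0.101).

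Of 21 neural stem and progenitor genes, 8 were higher, 5 lower and 8 not called (median 0.20). With the Xist level as a covariate, added after the data were seen, 5 were higher and 2 lower. Nes, the intermediate filament nestin of progenitors, had 11.04, 10.55, 10.75 and 11.19 in SYN1 tumors, against 7.02, 7.22, 6.78 and 7.57 in normal cortex, and rose by 3.73 ± 0.49 (limma adjusted p = 2.21e-06). Hmga2, a chromatin protein of fetal stem cells, had 12.44, 11.98, 12.37 and 12.08 in SYN1 tumors, against 7.85, 8.70, 8.04 and 8.78 in normal cortex, and rose by 3.87 ± 0.60 (limma adjusted p = 1.45e-05). The tumors lay within 1 log2 unit of each other for both genes. Sox2 (1.25), Pax6 (1.39), Klf4 (1.88) and Id1 (1.35) rose as well, whereas Msi1 (-1.18), Id4 (-1.15) and Hes5 (-0.56) fell and Fabp7 (0.20) and Prom1 (-0.23) were not called. Sox2 was not called with the Xist covariate. Of the promoter and candidate vector genes measured (Syn1, Gfap, Nes, Nf1 and Cdkn2a), Nes and Cdkn2a were higher, Syn1 lower, and Gfap and Nf1 not called. Nf1, whose product switches RAS off, had 10.94, 10.29, 10.32 and 10.58 in SYN1 tumors, against 10.92, 10.84, 10.95 and 10.84 in normal cortex (difference -0.36 ± 0.25, limma adjusted p = 0.299).

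Every one of 23 measured genes of mitosis and the spindle was higher in SYN1 tumors (median 2.30). Cdk1, the kinase that drives entry into mitosis, had 10.74, 10.47, 10.31 and 11.13 in SYN1 tumors, against 6.47, 7.27, 6.76 and 7.2 in normal cortex, and rose by 3.73 ± 0.42 (limma adjusted p = 4.64e-07). Mki67, the proliferation antigen Ki-67, had 10.08, 9.26, 8.44 and 10.07 in SYN1 tumors, against 6.54, 6.36, 6.5 and 6.78 in normal cortex (difference 2.92 ± 0.41, limma adjusted p = 4.34e-06). Tumors 1 and 4 had the higher values for Mki67 and for Foxm1 (1.88), a transcription factor of mitotic genes, and tumor 3 the lowest. Promoters of mitotic genes are known for CCAAT boxes and for the CHR element, whose letters here were TTTGAA. In RefSeq promoters of GRCm38.p6, 300 bases from 250 before each start site, CHR letters were found on either strand for 14 of 18 of these genes with a promoter in the table, against 20.2% of all 27025 genes, and CCAAT for 16 of 18, against 41.1%. The 150 bases before the Cdk1 start site (chr10:69352913-69353062, minus strand) hold both motifs, shown in capitals, without overlap, with CCAAT read on the other strand as ATTGG.
Cdk1: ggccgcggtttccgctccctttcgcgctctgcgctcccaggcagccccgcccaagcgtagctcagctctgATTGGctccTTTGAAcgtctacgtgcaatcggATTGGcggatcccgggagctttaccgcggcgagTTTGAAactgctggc

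DNA replication genes were higher for 22 of 23 (median 1.21). Rrm2, a subunit of ribonucleotide reductase, had 9.97, 8.87, 8.77 and 10.15 in SYN1 tumors, against 6.96, 6.83, 7.18 and 7.29 in normal cortex (difference 2.37 ± 0.36, limma adjusted p = 1.07e-05). Pcna was the gene not called, at 0.68 ± 0.31 (limma adjusted p = 0.0885), although its tumor arrays, at 10.95 to 11.90, lay above the normal ones, at 10.73 to 10.94. Among 17 genes of the G1 cyclins, INK4 inhibitors and RB family, 9 were higher and 1 lower (median 1.00). Cdkn2a, whose locus codes for the tumor suppressors p16 and p19ARF, had 9.94, 9.20, 9.78 and 9.92 in SYN1 tumors, against 7.36, 6.99, 7.28 and 7.35 in normal cortex, and rose by 2.46 ± 0.34 (limma adjusted p = 3.99e-06). Its neighbor Cdkn2b rose by 2.76, and so did the cyclin D kinase gene Cdk6, by 2.65. Ccnd1, cyclin D1, had 13.45, 12.28, 12.51 and 13.01 in SYN1 tumors, against 10.54, 10.21, 10.36 and 10.68 in normal cortex (difference 2.37 ± 0.31, limma adjusted p = 2.21e-06). The CDK inhibitor gene Cdkn2d was the one that fell (-0.44), and Rb1 (-0.43) and Ccne1 (0.02) were not called.

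Of 18 p53 target genes, 7 were higher, 3 lower and 8 not called (median 0.38). Mdm2, the ubiquitin ligase of p53, had 9.86, 9.52, 9.91 and 9.88 in SYN1 tumors, against 8.89, 8.98, 8.88 and 8.86 in normal cortex (difference 0.89 ± 0.21, limma adjusted p = 0.00124). The death receptor gene Tnfrsf10b rose most (2.79), Sesn1 (-1.23), Zmat3 (-1.14) and Plk2 (-0.95) fell, and Ccng1 (0.36), Bbc3 (-0.04) and Fas (0.17) were not called. RAS regulators and ERK output genes were higher for 10 of 21 and lower for 3 (median 0.92). Fosl1, an AP-1 subunit induced by ERK, had 10.57, 10.46, 10.93 and 10.85 in SYN1 tumors, against 7.18, 7.2, 8.15 and 7.87 in normal cortex, and rose by 3.10 ± 0.59 (limma adjusted p = 0.000139). Spry4, a feedback inhibitor of the pathway, had 11.58, 10.58, 11.21 and 11.61 in SYN1 tumors, against 9.05, 9.07, 8.67 and 8.92 in normal cortex (difference 2.32 ± 0.63, limma adjusted p = 0.00412). The 2 groups did not overlap for either gene. The ERK phosphatase genes Dusp4 (2.79) and Dusp5 (1.84) and Myc (2.73) rose, Dusp6 (0.74) was not called, and Etv5 (-0.90), Rasal1 (-1.94) and Rasal2 (-0.79) fell.

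Transcription regulators of the mesenchymal state were higher for 12 of 18 and lower for 1 (median 1.54). Runx1 had 10.52, 10.98, 11.46 and 11.14 in SYN1 tumors, against 7.46, 7.59, 7.22 and 7.67 in normal cortex, and rose by 3.54 ± 0.51 (limma adjusted p = 5.56e-06). Prrx1 (3.11), the YAP partner gene Tead1 (2.65), Snai2 (1.72), Twist1 (1.71) and Cebpb (0.97) rose too, Zeb1 (0.34) and Zeb2 (-0.54) were not called, and Zbtb18, a repressor in neurons, fell (-1.83). Twist1 was not called with the Xist covariate. Matrix glycoprotein genes were higher for 14 of 17 and lower for none (median 2.54). Tnc, tenascin C, had 12.89, 11.56, 11.52 and 12.62 in SYN1 tumors, against 7.63, 8.51, 7.12 and 9.05 in normal cortex, and rose by 4.07 ± 0.66 (limma adjusted p = 2.22e-05). Fn1, fibronectin, had 12.38, 12.33, 12.73 and 12.75 in SYN1 tumors, against 9.93, 9.93, 9.68 and 9.77 in normal cortex (difference 2.72 ± 0.43, limma adjusted p = 2e-05). Fibronectin was even among tumors, while tenascin C was higher in tumors 1 and 4. Collagen genes were higher for 11 of 16 (median 1.07). Without SYN1 tumor 1 the count was 7, without SYN1 tumor 4 it was 6, and with the Xist covariate it was 7. The basement membrane gene Col4a1 rose by 1.23 ± 0.22 (limma adjusted p = 7.5e-05), and the fibrillar gene Col1a1, at 9.28, 8.59, 8.77 and 9.36 in SYN1 tumors against 8.18, 7.98, 8.03 and 8.01 in normal cortex, was not called (limma adjusted p = 0.226).

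Of 20 genes of integrins, laminins and CD44, 17 were higher and 1 lower (median 1.98). Itga5, the fibronectin receptor subunit, had 11.18, 11.36, 11.83 and 11.53 in SYN1 tumors, against 6.59, 7.33, 7.15 and 7.45 in normal cortex, and rose by 4.35 ± 0.59 (limma adjusted p = 3.48e-06). Itgb1 (3.42), its partner, Itga2 (3.88) and Cd44 (3.71), the hyaluronan receptor gene, rose, and Itgb8 fell (-1.32). Annexin and S100 genes were higher for 12 of 18 and lower for none (median 1.35). Anxa1 had 10.92, 10.996, 11.49 and 11.06 in SYN1 tumors, against 6.08, 6.53, 5.79 and 6.56 in normal cortex (difference 4.88 ± 0.60, limma adjusted p = 1.18e-06). S100a6 had 12.54, 12.32, 12.69 and 11.63 in SYN1 tumors, against 7.32, 8.19, 7.2 and 8.01 in normal cortex (difference 4.62 ± 0.60, limma adjusted p = 1.95e-06). S100a1 (-0.06) and Anxa11 (-0.04) were among the 6 not called.

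Matrix protease and inhibitor genes were higher for 17 of 21 and lower for 2 (median 2.65). Mmp13, a collagenase, had 9.54, 10.25, 10.39 and 10.63 in SYN1 tumors, against 6.24, 6.29, 6.38 and 6.85 in normal cortex, and rose by 3.77 ± 0.81 (limma adjusted p = 0.000532). Mmp10, a stromelysin, had 10.28, 9.63, 10.70 and 10.51 in SYN1 tumors, against 7.05, 6.97, 7.03 and 6.98 in normal cortex (difference 3.27 ± 0.72, limma adjusted p = 0.000645). Mmp3, the other stromelysin, had 8.16, 7.29, 7.16 and 10.33 in SYN1 tumors, against 6.10, 6.06, 6.14 and 5.73 in normal cortex (difference 2.23 ± 0.59, limma adjusted p = 0.00346). Tumor 4 stood above the other tumors for Mmp3, and the groups did not overlap for any of these 3 genes. Mmp2 (3.64), the urokinase gene Plau (4.28) and its receptor gene Plaur (3.91) rose, and the membrane-bound Mmp16 (-1.78) and Mmp17 (-2.79) fell. The AP-1 letters TGANTCA, which read the same on both strands, were found in the promoters of 5 of the 11 genes of this list in the table (Mmp3, Mmp10, Mmp12, Mmp13 and Plaur), against 8.97% of all genes. All 5 were higher, as were 9 of the 11. Mmp10, Mmp12 and Mmp13 are members of 1 gene family that lie near each other on chromosome 9. Their promoters need not be separate cases. The 150 bases before the start sites of Mmp13 (chr9:7272364-7272513, plus strand) and Mmp10 (chr9:7502192-7502341, plus strand) carry them in capitals, 35 and 63 bases before the start, and are shown as examples of the list.
Mmp13: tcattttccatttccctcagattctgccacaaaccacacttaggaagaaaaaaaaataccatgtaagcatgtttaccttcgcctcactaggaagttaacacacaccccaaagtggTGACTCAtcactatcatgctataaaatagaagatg
Mmp10: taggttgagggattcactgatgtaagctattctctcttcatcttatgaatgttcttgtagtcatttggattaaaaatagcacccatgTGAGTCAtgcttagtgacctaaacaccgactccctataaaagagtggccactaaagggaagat

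Of 22 genes of the TGF-beta, activin and BMP families 11 were higher and 4 lower (median 0.74). Tgfb1, the ligand, had 10.82, 10.57, 11.12 and 10.84 in SYN1 tumors, against 8.33, 8.13, 8.18 and 8.23 in normal cortex, and rose by 2.62 ± 0.47 (limma adjusted p = 7.08e-05). The activin subunit gene Inhba (2.07), the receptor gene Tgfbr2 (1.26) and the latent TGF-beta binding protein gene Ltbp1 (2.88) rose, and the BMP antagonist genes Chrd (-0.76) and Nog (-0.55) fell, as did Bmp4 (-0.70) and Bmpr1b (-0.74). Inhba was not called with the Xist covariate. Of 19 receptor tyrosine kinase genes 7 were higher and 5 lower (median 0.40). Met, the receptor for hepatocyte growth factor, had 9.43, 8.88, 9.03 and 9.63 in SYN1 tumors, against 7.32, 7.53, 7.30 and 7.21 in normal cortex (difference 1.90 ± 0.29, limma adjusted p = 1.3e-05). Egfr (1.67), Axl (2.37), Epha2 (2.56) and Ddr2 (3.37) rose. Erbb4, a neuregulin receptor of interneurons, had 7.70, 8.19, 6.74 and 7.48 in SYN1 tumors, against 10.61, 10.64, 10.41 and 10.40 in normal cortex, and fell by 2.99 ± 0.48 (limma adjusted p = 2.3e-05). The neurotrophin receptor genes Ntrk2 (-2.47) and Ntrk3 (-2.44) fell with it. Of 21 growth factor ligand genes 8 were higher and 5 lower (median 0.28), with the EGF family members Hbegf (2.56) and Ereg (3.12) and Vegfa (1.27) higher, Igf2 (-1.23) and Fgf9 (-1.58) lower, and the Met ligand gene Hgf not called (-0.17). Without SYN1 tumor 3 Igf2 was not called. Of 15 Notch pathway genes 7 were higher and 2 lower (median 0.20). The ligand gene Jag1 had 10.71, 12.18, 12.49 and 11.40 in SYN1 tumors, against 7.21, 7.47, 7.49 and 7.52 in normal cortex, and rose by 4.27 ± 0.72 (limma adjusted p = 3.51e-05), while Hey2 (-1.01) and Jag2 (-1.01) fell.

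**Figure D2:**
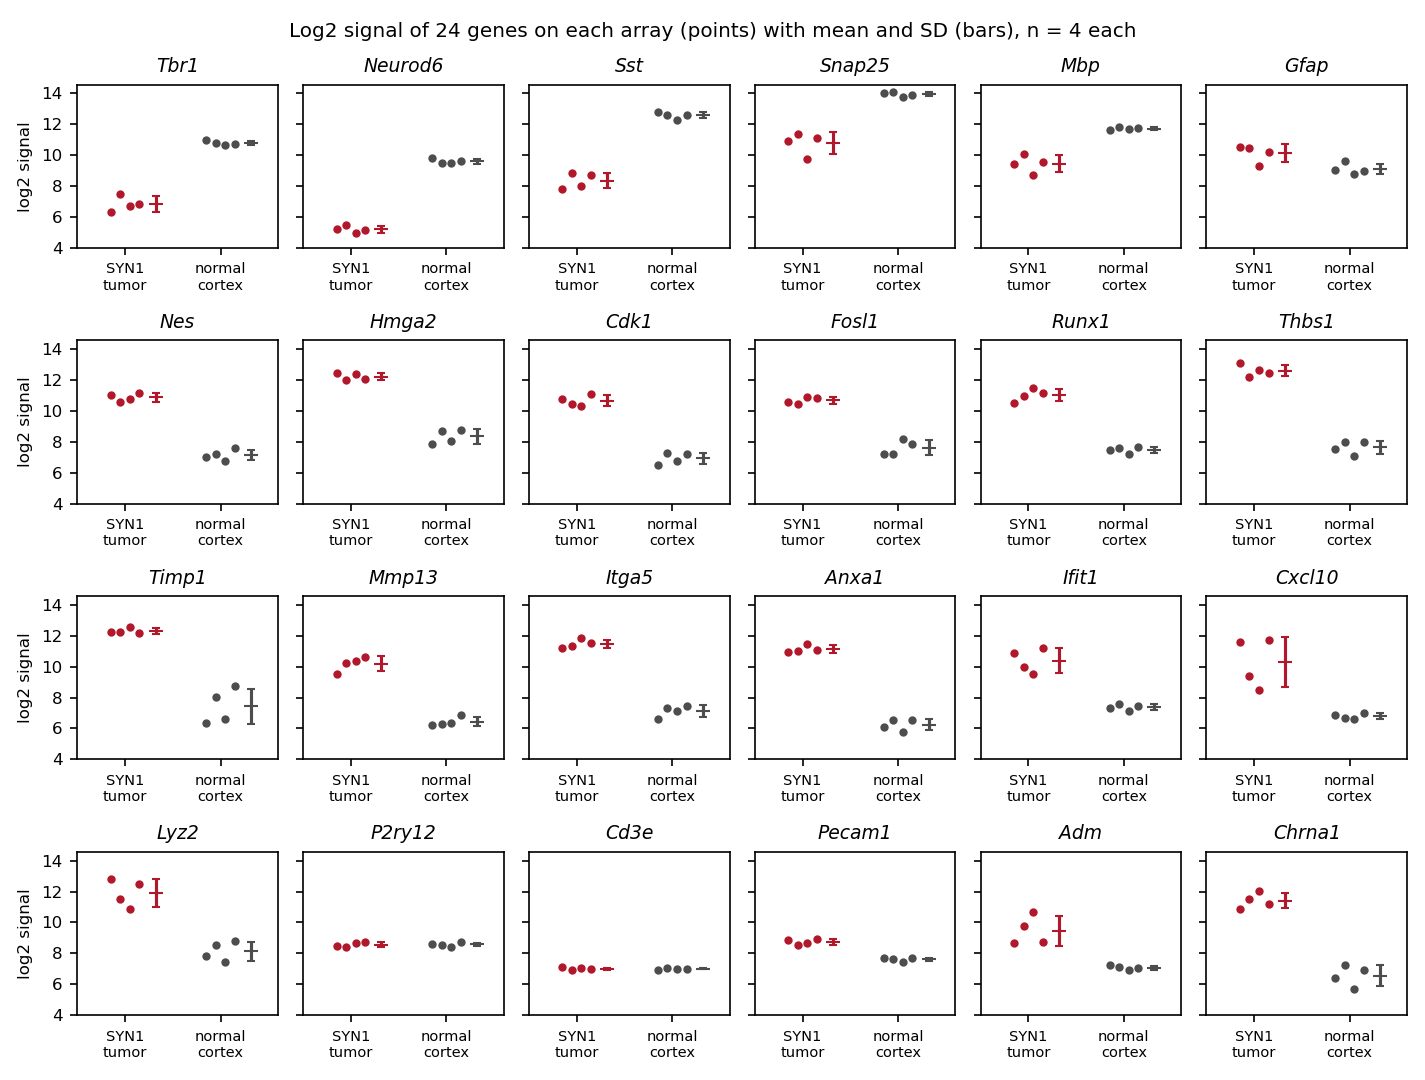
Log2 signal (y axis) of 24 genes in SYN1 tumors (red) and normal cortex (grey); points are arrays, and bars give mean and SD. Neuron genes sit lower in SYN1 tumors, Nes to Lyz2 higher, and P2ry12 and Cd3e at about the same signal in both groups.

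All 18 interferon-stimulated genes measured were higher in SYN1 tumors (median 2.24). Ifit1, an antiviral RNA-binding protein, had 10.90, 9.95, 9.51 and 11.23 in SYN1 tumors, against 7.35, 7.58, 7.13 and 7.46 in normal cortex, and rose by 3.02 ± 0.63 (limma adjusted p = 0.000346). Cxcl10, an interferon-induced chemokine, had 11.58, 9.38, 8.46 and 11.70 in SYN1 tumors, against 6.89, 6.70, 6.63 and 7.02 in normal cortex (difference 3.47 ± 0.68, limma adjusted p = 0.000205). Tumors 1 and 4 were the highest for both, and tumor 3 the lowest, without reaching the normal range. Ifit3 (3.29), Usp18 (3.27) and the factor gene Irf7 (2.68) rose likewise. The letters of the interferon response element (GAAA, any 2 bases, GAAA), on either strand, were found in 7 of 14 promoters of the list, against 3.99% of all genes, and the Ifit1 promoter holds 2 of them before its start site (chr19:34640739-34640888, plus strand), shown in capitals and read on the other strand as TTTC, 2 bases, TTTC.
Ifit1: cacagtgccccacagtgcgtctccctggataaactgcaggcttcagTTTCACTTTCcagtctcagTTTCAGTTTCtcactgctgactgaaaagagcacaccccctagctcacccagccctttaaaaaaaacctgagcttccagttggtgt

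Of 15 MHC and antigen presentation genes 12 were higher (median 1.34). The class II genes H2-Aa (2.95) and Cd74 (2.67) and the peptide transporter gene Tap1 (1.62) rose, whereas Ciita, the class II transactivator, was not called (0.09). Of 19 monocyte and macrophage genes, 18 were higher (median 2.28), while of 12 resting microglia genes 1 was higher, 2 were lower and 9 were not called (median 0.00). Lyz2, lysozyme of myeloid cells, had 12.79, 11.51, 10.85 and 12.48 in SYN1 tumors, against 7.80, 8.53, 7.43 and 8.77 in normal cortex, and rose by 3.77 ± 0.42 (limma adjusted p = 3.8e-07). Ptprc, the pan-leukocyte antigen CD45, had 9.40, 8.11, 7.65 and 9.68 in SYN1 tumors, against 6.66, 6.66, 6.32 and 6.60 in normal cortex (difference 2.15 ± 0.35, limma adjusted p = 2.31e-05). Tumors 1 and 4 were the higher ones for both genes. Arg1 (3.61), the mannose receptor gene Mrc1 (3.02) and Gpnmb (3.48) rose. P2ry12, a purine receptor of resting microglia, had 8.48, 8.38, 8.64 and 8.73 in SYN1 tumors, against 8.60, 8.53, 8.42 and 8.73 in normal cortex (difference -0.01 ± 0.42, limma adjusted p = 0.987). Cx3cr1, the fractalkine receptor of microglia, had 10.04, 9.04, 8.02 and 9.73 in SYN1 tumors, against 9.43, 9.27, 9.31 and 9.28 in normal cortex, with tumors 1 and 4 above and tumors 2 and 3 below every normal array (difference -0.11 ± 0.40, limma adjusted p = 0.872). For Tmem119, a second microglia gene (0.08, not called), tumors 1 and 4 also lay above and tumors 2 and 3 below every normal array.

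Few lymphocyte genes passed the test. Of 17 T and NK cell genes 1 was higher and none lower (median 0.03). That gene was Cd274, which codes for the checkpoint ligand PD-L1 and is also made by tumor and myeloid cells, at 9.25, 8.46, 8.71 and 9.68 in SYN1 tumors, against 7.13, 7.31, 6.94 and 7.26 in normal cortex (difference 1.87 ± 0.38, limma adjusted p = 0.000265). Cd3e, a chain of the T cell receptor complex, had 7.08, 6.89, 7.02 and 6.99 in SYN1 tumors, against 6.95, 7.02, 7.01 and 7.01 in normal cortex (difference 0.00 ± 0.13, limma adjusted p = 0.997). Cd8a (0.04) and Nkg7 (0.39) were not called. Of 11 B cell, neutrophil and red blood cell genes, S100a8 (1.57) and Cd79b (0.49) were higher and none lower (median 0.17). The higher count is near the share over all genes (18.2%). Of 20 chemokine genes 10 were higher and 3 lower (median 1.00), with Ccl6 (4.04), Ccl3 (3.63) and Ccl2 (3.33) higher and Cx3cl1, the membrane-bound chemokine of neurons, lower at -3.07 ± 0.36 (limma adjusted p = 6.75e-07). Of 16 complement genes 10 were higher and none lower (median 1.23). The receptor gene C3ar1 had 12.02, 10.22, 9.87 and 11.55 in SYN1 tumors, against 7.46, 7.97, 7.52 and 7.87 in normal cortex (difference 3.21 ± 0.48, limma adjusted p = 9.7e-06), and C1qa rose by 1.65.

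Of 22 endothelial and blood-brain barrier genes 12 were higher and 2 lower (median 0.70). The sprouting genes Esm1 (2.25) and Angpt2 (2.07) and the endothelial genes Pecam1 (1.14) and Cldn5 (0.83) rose, the thyroid hormone transporter gene Slco1c1 fell (-2.05), and the barrier lipid transporter gene Mfsd2a was not called (-0.59). Of 17 mural cell and fibroblast genes 4 were higher (median 0.56), near the share over all genes (18.2%). Acta2, smooth muscle actin, was among the 4 at 1.84, whereas the pericyte gene Rgs5 (-0.02) was not called. Hypoxia and glycolysis genes were higher for 12 of 22 and lower for 3 (median 0.77). Adm, a hypoxia-induced peptide, had 8.66, 9.74, 10.67 and 8.70 in SYN1 tumors, against 7.22, 7.10, 6.89 and 7.02 in normal cortex, highest in tumor 3 (difference 2.39 ± 0.47, limma adjusted p = 0.000204). Hk2 (2.13) and the lactate transporter gene Slc16a3 (2.35) rose, and Eno2, the neuronal enolase, fell (-2.81).

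Oxidative phosphorylation genes were lower for 13 of 24 and higher for none (median -0.49). Without SYN1 tumor 2 the count was 7, and without SYN1 tumor 3 or normal cortex 1 it was 8. Cytoplasmic ribosomal protein genes were higher for 10 of 18 (median 0.73), such as Rps3 at 0.95 ± 0.19 (limma adjusted p = 0.000221). Of 18 genes of cholesterol synthesis and uptake 1 was higher and 3 lower (median -0.04), beside 18.2% higher and 20.5% lower over all genes. The efflux pump gene Abca1 rose (2.04) and the synthesis gene Hmgcs1 fell (-0.98). Of 15 genes of DNA methylation and Polycomb complexes 4 were higher and 4 lower (median 0.14). Ezh2, the Polycomb methyltransferase, had 11.13, 9.85, 9.87 and 10.68 in SYN1 tumors, against 8.57, 9.03, 9.12 and 8.79 in normal cortex (difference 1.5 ± 0.42, limma adjusted p = 0.00511). The maintenance methyltransferase gene Dnmt1 (0.86) and its partner Uhrf1 (1.75) rose, and Tet1 (-2.01), which oxidises methylated cytosine, the Polycomb gene Cbx7 (-1.88) and Ezh1 (-0.77) fell. With the Xist covariate Ezh2 and Dnmt1 were not called. Of 18 muscle and acetylcholine receptor genes 2 were higher. Chrna1, the alpha subunit of the muscle nicotinic receptor, had 10.87, 11.55, 12.02 and 11.21 in SYN1 tumors, against 6.37, 7.26, 5.68 and 6.90 in normal cortex, and rose by 4.86 ± 0.78 (limma adjusted p = 2.25e-05). Chrnb1 rose by 1.61, while the subunit genes Chrnd (-0.13), Chrng (-0.05) and Chrne (-0.05) and the muscle factor genes Myog (0.01) and Myod1 (-0.18) were not called (median of the list -0.05). None of 12 choroid plexus and ependymal genes was called (median 0.04), although Ttr had 12.59, 11.82, 8.06 and 10.10 in SYN1 tumors, against 7.86, 8.10, 9.24 and 9.12 in normal cortex.

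The array also carries probe sets for miRNA genes. These report RNA from the hairpin locus, so the mature miRNA was not measured. Of 297 miRNA genes 16 were higher and 60 lower (median -0.13, against -0.04 over all genes). The share that was lower was near that of all genes (20.5%), and the share that was higher was below that of all genes (18.2%). Of the 39 that lie between Meg3 and Dio3 on chromosome 12, an imprinted region expressed in neurons, 32 were lower and none higher (median -0.86), against 16 higher and 28 lower among the other 258 (median -0.08). For these 258 the higher and the lower share were both below those of all genes. The mature sequences of those described below, from RefSeq with GRCm38.p6 names, are given 5′ to 3′ with the seed (bases 2 to 8), which pairs with target RNAs, in capitals. The first 5 belong to a gene that was lower and the other 6 to a gene that was higher, and miR-128, miR-181a, miR-181b and miR-19b each have a second locus, given below.
mmu-miR-128-3p: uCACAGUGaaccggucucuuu
mmu-miR-134-5p: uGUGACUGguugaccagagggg
mmu-miR-377-3p: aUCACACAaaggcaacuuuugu
mmu-miR-382-5p: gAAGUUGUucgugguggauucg
mmu-miR-137-3p: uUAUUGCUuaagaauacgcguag
mmu-miR-31-5p: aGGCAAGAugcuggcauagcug
mmu-miR-181a-5p: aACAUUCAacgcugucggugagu
mmu-miR-181b-5p: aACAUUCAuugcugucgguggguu
mmu-miR-19a-3p: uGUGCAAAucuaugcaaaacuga
mmu-miR-19b-3p: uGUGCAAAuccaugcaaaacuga
mmu-miR-18a-5p: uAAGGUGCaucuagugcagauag

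The first 5 sequences each have a seed of their own, while miR-181a and miR-181b share one, and miR-19a and miR-19b share another. Mir128-1, a brain miRNA gene inside another gene, had 6.47, 6.86, 6.57 and 6.98 in SYN1 tumors, against 9.09, 9.65, 9.44 and 9.31 in normal cortex, and fell by 2.65 ± 0.31 (limma adjusted p = 7.5e-07). The host gene R3hdm1 fell by 1.55 ± 0.31 (limma adjusted p = 0.000258). Both miR-128 loci were lower, Mir128-2 by less (-0.51). Mir137 was lower as well (-1.12 ± 0.26, limma adjusted p = 0.000878). Mir134, a dendritic miRNA gene of the chromosome 12 region, had 8.03, 8.53, 7.85 and 8.01 in SYN1 tumors, against 9.80, 9.92, 9.86 and 9.81 in normal cortex, and fell by 1.74 ± 0.23 (limma adjusted p = 2.28e-06). Mir377 and Mir382 each fell by 1.97. The long noncoding RNA genes of the same region fell too, Meg3 by 1.88 ± 0.46 (limma adjusted p = 0.00172) and Rian by 1.75 ± 0.33 (limma adjusted p = 0.000136). Dlk1, a growth regulator gene of the same imprinted domain that is read from the other parental allele, had 11.53, 8.81, 8.55 and 10.54 in SYN1 tumors, against 7.79, 7.49, 7.89 and 8.23 in normal cortex, and rose by 2.01 ± 0.66 (limma adjusted p = 0.0167). Dio3 (-0.24) and Rtl1 (0.04) were not called.

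Mir31 had 7.32, 8.19, 8.74 and 7.54 in SYN1 tumors, against 6.48, 6.43, 6.06 and 6.14 in normal cortex, and rose by 1.67 ± 0.37 (limma adjusted p = 0.000593). Tumors 2 and 3 were the highest for it and no array overlapped. Mir181b-2 (1.41) and its neighbor Mir181a-2 (0.89) rose, while the second loci of the same miRNAs, Mir181a-1 (-0.03) and Mir181b-1 (-0.37), were not called. Of 5 measured members of the cluster that holds Mir17, a target of Myc, Mir18 (0.72), Mir19a (0.76) and Mir19b-1 (0.52) rose, and Mir17 (-0.07) and Mir20a (0.07) were not called. Mir19b-2, the second locus of miR-19b, was not called either (0.26).

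**Figure D3:**
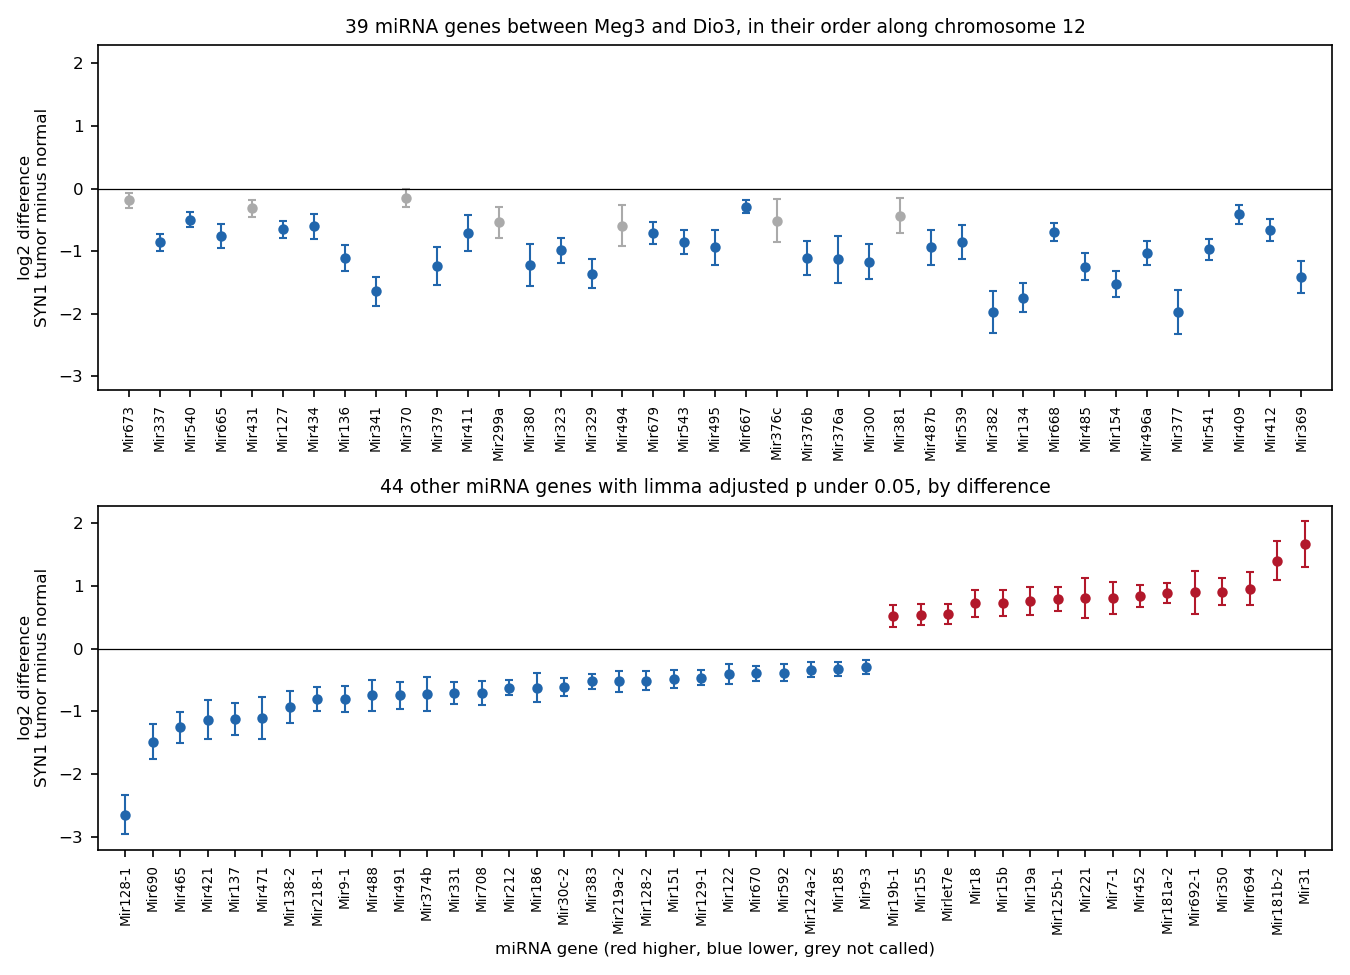
Log2 difference (SYN1 tumors minus normal cortex, y axis) of miRNA genes with its SE; the upper panel holds the 39 genes between Meg3 and Dio3 in chromosome order, the lower panel the 44 other genes that were called. All 39 points of the upper panel lie below 0, and 32 of them are called (blue).

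The 4 SYN1 tumors were not alike. Tumors 1 and 4 correlated best (0.986), followed by tumors 2 and 3 (0.978), and the lowest correlation was that of tumors 1 and 3 (0.956). The 10 genes with the widest range among tumors were Cck (4.73), Dppa2 (4.73), Prl5a1 (4.73), Ttr (4.53), Sprr1b (4.52), Nrk (4.47), Ivl (4.18), Prr9 (4.12), Cyp11a1 (4.09) and Dynap (4.02). Dppa2, a gene of pluripotent cells, had 8.04, 11.07, 11.42 and 6.70 in SYN1 tumors 1 to 4, against 6.03, 6.32, 6.15 and 6.48 in normal cortex. Nrk, an X-linked kinase gene of placenta, had 6.72, 10.44, 11.19 and 6.74 in SYN1 tumors, against 5.70, 5.64, 5.76 and 5.74 in normal cortex. Both were highest in tumors 2 and 3, and tumors 1 and 4 were lower but still above every normal array. Ivl, involucrin of the keratinocyte envelope, was also highest in tumors 2 and 3. It had 6.72, 9.73, 10.90 and 6.98 in SYN1 tumors, against 6.13, 6.15, 6.01 and 6.37 in normal cortex. Cck, the neuropeptide cholecystokinin, had 7.49, 11.72, 12.22 and 9.13 in SYN1 tumors, against 12.44, 12.19, 12.09 and 12.24 in normal cortex, so that tumors 2 and 3 were near the normal signal, although the synapse lists were lowest in tumor 3. Its call against normal cortex (-2.10 ± 0.82, limma adjusted p = 0.0438) was lost without SYN1 tumor 1 or 4 and without any one of the normal arrays. Cyp11a1, the side-chain cleavage enzyme of steroid synthesis, had 5.74, 9.64, 9.82 and 5.82 in SYN1 tumors, against 7.15, 6.75, 6.94 and 6.69 in normal cortex, above normal in tumors 2 and 3 and below it in tumors 1 and 4.

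Families that these genes belong to were counted after their values were seen. Of 52 keratin genes 3 were higher (Krt8, Krt18 and Krt19, keratins of simple epithelia) and 5 lower. Both shares were below those over all genes (18.2% higher and 20.5% lower). Krt8 had 7.30, 10.21, 10.92 and 7.59 in SYN1 tumors, against 7.47, 7.40, 7.31 and 7.51 in normal cortex, again high in tumors 2 and 3 and not in tumors 1 and 4. Of 13 small proline-rich genes 3 were higher, of 24 serpin B genes 5, and of 19 prolactin family genes 4, with none lower in these 3 families. The counts of the small proline-rich, serpin B and prolactin families are near the share of higher genes over all genes (18.2%). Prl2c5, a placental prolactin-like gene, had 7.66, 10.13, 10.55 and 9.35 in SYN1 tumors, against 4.36, 5.71, 5.45 and 5.06 in normal cortex, and rose by 4.28 ± 0.87 (limma adjusted p = 0.000288), while Prl5a1 was high in tumor 4 only, at 10.31, with 5.58 to 5.76 in the other tumors. Some prolactin family genes are close copies, and a probe set may read more than 1 of them. In the opposite order, tumors 1 and 4 were the higher ones for mitosis, replication, interferon, macrophage and chemokine lists. The mean level of the macrophage list relative to normal cortex was 2.87, 1.93, 1.77 and 2.92 in SYN1 tumors 1 to 4, and that of the mitosis list 2.83, 2.03, 1.61 and 3.13. Ms4a7, a macrophage gene, had 10.13, 6.70, 6.53 and 9.26 in SYN1 tumors, against 6.09, 6.08, 5.40 and 5.93 in normal cortex. Hypoxia and glycolysis genes ran the other way, at 0.45, 0.72, 1.25 and 0.52. The part of cell mixture in these differences was not tested.

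**Figure D4:**
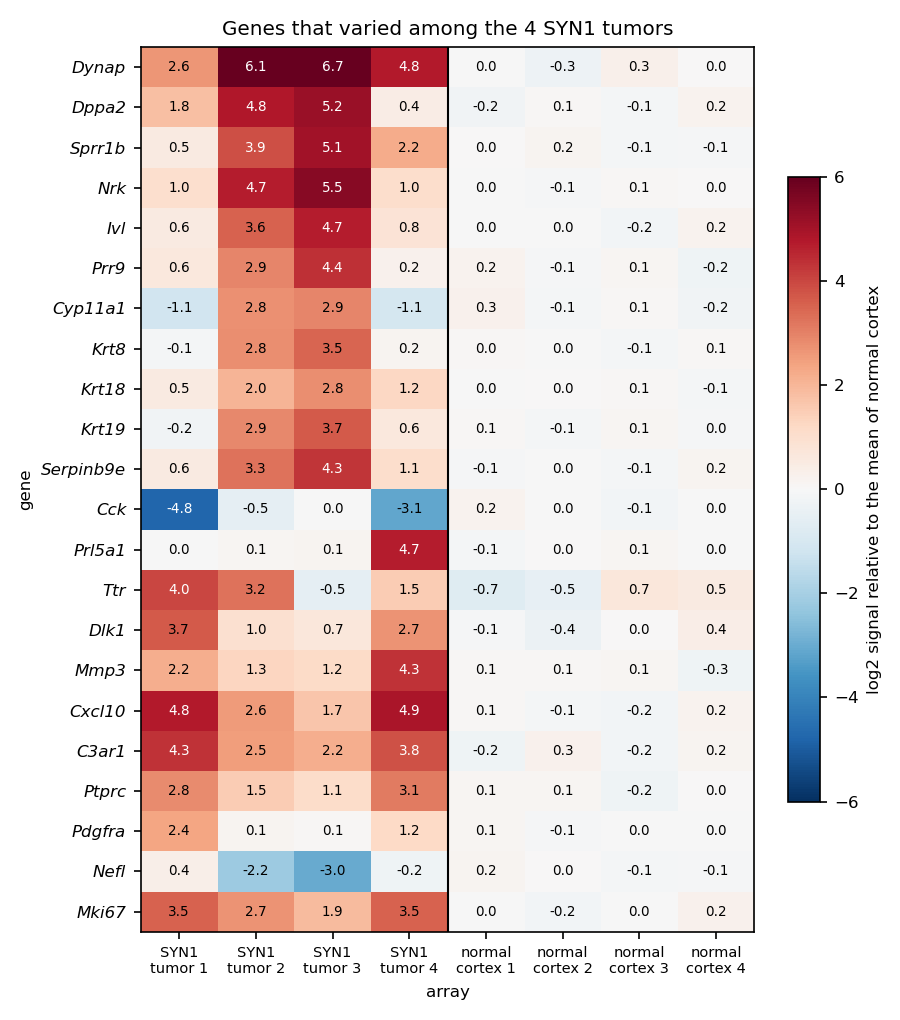
Log2 signal of 22 genes on each array relative to the mean of normal cortex (colour and printed value; columns are SYN1 tumors 1 to 4, then normal cortex 1 to 4). Dynap to Cck are highest in tumors 2 and 3, and Dlk1 to Mki67 highest in tumors 1 and 4.

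Against the 4 GFAP cortex tumors, 35 genes were called, 30 higher and 5 lower in SYN1 tumors, which is 0.176% of the genes tested. For 34 of the 35 the groups did not overlap, against 7.58% of all genes. The calls came from the same arrays, so this separation is no further evidence for them. None of the 30 genes with the largest differences from normal cortex was among the 35. GFAP cortex tumor 1 stood apart from its group, with a mean correlation of 0.868 to the other 3, against 0.925 to 0.948 for those. An earlier analysis of these data also set apart GFAP hippocampus tumors 5 to 7, which enter the shared estimate of spread. Their mean correlations with their group were 0.889, 0.941 and 0.938, beside 0.930 to 0.948 for GFAP hippocampus tumors 1 to 4, so that by this measure 1 of the 3 was lower. Without GFAP cortex tumor 1 and these 3 arrays 2655 genes were called (13.3%), 1106 higher and 1549 lower, and all 35 were among them. In that fit all 15 of the largest negative genes and 2 of the 15 largest positive genes passed. These genes were picked by their difference from normal cortex on the same SYN1 arrays, so their counts are no independent check. Of 20 synaptic vesicle genes, 16 were lower in SYN1 tumors than in GFAP cortex tumors in that fit, with none higher (5.55% of all genes were higher and 7.77% lower). With all arrays none of the 20 was called, and the mean level of the list relative to normal cortex was -3.49 to -2.35 in SYN1 tumors, against -4.21 in GFAP cortex tumor 1 and -1.02, -1.58 and -2.01 in GFAP cortex tumors 2 to 4. Astrocyte genes were also lower in the smaller fit, for 10 of 18, while with all arrays none of the 18 was called. Their mean level relative to normal cortex was -1.67 to -0.77 in SYN1 tumors. It was -2.87 in GFAP cortex tumor 1 and -0.07, -0.05 and -0.53 in GFAP cortex tumors 2 to 4. SYN1 tumors correlated with normal cortex at 0.796 to 0.874. GFAP cortex tumors 2 to 4 did so at 0.896 to 0.960, and GFAP cortex tumor 1, below every SYN1 tumor, at 0.740 to 0.752. The part of normal tissue in these differences was not tested. Without the 4 arrays Syn1 itself was at -1.54 (limma adjusted p = 0.015), against -0.64 with all arrays (limma adjusted p = 0.65).

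Prl8a9, a placental prolactin-like gene, had 6.04, 7.32, 8.74 and 8.41 in SYN1 tumors, against 5.46, 5.36, 5.54 and 5.44 in GFAP cortex tumors (difference 2.18, limma adjusted p = 0.0163). Kcnn4, a calcium-activated potassium channel gene, had 9.02, 9.35, 10.03 and 9.45 in SYN1 tumors, against 7.92, 7.10, 7.83 and 7.61 in GFAP cortex tumors (difference 1.85, limma adjusted p = 0.0293). The groups did not overlap for either gene, and Prl8a9 was even in the GFAP tumors and spread in the SYN1 tumors. Slc25a21 (1.72), a mitochondrial carrier gene, Lncenc1 (1.69), Oasl1 (1.62), an interferon-stimulated gene, Stac (1.57), Adcy7 (1.53), an adenylyl cyclase gene, and the cytokine gene Tslp (1.38) were also higher. Fgfr2, a receptor of fibroblast growth factors, had 7.69, 7.73, 6.98 and 7.60 in SYN1 tumors, against 8.85, 9.10, 8.90 and 8.17 in GFAP cortex tumors (difference -1.26, limma adjusted p = 0.0477), and was also lower than normal cortex (-1.67). Lbp, the lipopolysaccharide binding protein, had 8.61, 7.91, 7.18 and 8.69 in SYN1 tumors, against 9.66, 9.0, 9.73 and 9.17 in GFAP cortex tumors (difference -1.30, limma adjusted p = 0.0477), and Cmya5 was lower by a smaller amount (-0.61).

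Of the 35 genes 7 lie on the X chromosome (20.0%), which holds 3.71% of the genes tested. In the fit without GFAP cortex tumor 1 and GFAP hippocampus tumors 5 to 7, 148 of the 2655 called genes lay on it (5.57%). Efnb1, an ephrin, had 9.35, 9.31, 9.75 and 9.16 in SYN1 tumors, against 8.28, 7.88, 8.14 and 8.33 in GFAP cortex tumors (difference 1.23, limma adjusted p = 0.0026). Kdm5c, a histone demethylase gene known to escape X inactivation, had 10.18, 10.18, 10.55 and 9.97 in SYN1 tumors, against 8.91, 8.96, 9.15 and 9.28 in GFAP cortex tumors, and 9.30 in normal cortex 1 beside 8.90, 8.92 and 8.85 in normal cortex 2 to 4. Spin4, Mospd1, Maged2, Atg4a and Rap2c were the others. Among the normal arrays, normal cortex 1 was highest for Kdm5c, Maged2 and Rap2c, and lowest for Efnb1 and Atg4a. For Spin4 and Mospd1 it lay within the range of normal cortex 2 to 4. Efnb1 had 8.25 in normal cortex 1, beside 8.28, 8.36 and 8.47 in normal cortex 2 to 4. Xist was 11.09 to 11.65 in SYN1 tumors, against 5.31 to 6.11 in GFAP cortex tumors, so the promoter of the construct and the pattern of sex-linked genes cannot be told apart in this comparison. With the Xist level as a covariate, added after the data were seen, limma called no gene. Of the 19938 genes 903 had an unadjusted p under 0.05, not more than that threshold gives when no gene differs. Xist divides the SYN1 from the GFAP cortex tumors completely, so this fit is a weak test of the promoter.

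**Figure D5:**
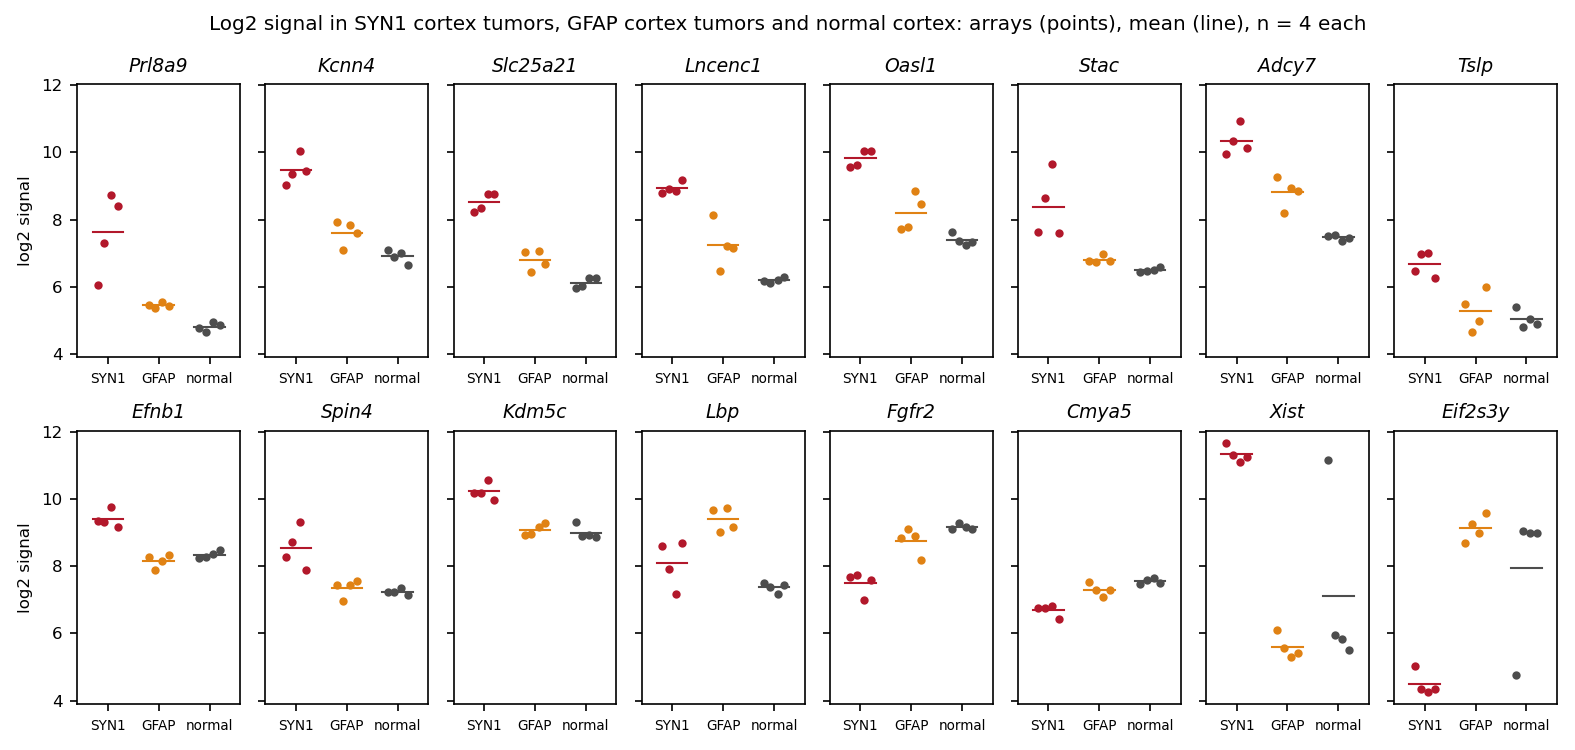
Log2 signal (y axis) of 16 genes in SYN1 cortex tumors (red), GFAP cortex tumors (orange) and normal cortex (grey); points are arrays and lines are means, n = 4 each. Prl8a9 to Kdm5c lie higher in SYN1 tumors than in GFAP tumors, Lbp, Fgfr2 and Cmya5 lower, and Xist and Eif2s3y separate the SYN1 from the GFAP tumors and normal cortex 1 from the other normal arrays.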

How the data were processed

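Per the labels' protocols, total RNA of 30 mouse samples was extracted with Trizol, labelled with an Ambion WT expression kit and hybridised to Affymetrix Mouse Gene 1.0 ST arrays. The authors deposited 1 log2 signal per probe set and array. RMA, MAS5 and Affymetrix Power Tools are named, per the submitters' processing notes, without saying which step each made, so the normalization is known only from the values, which ran from 0.133 to 16.1 and were used as deposited. Background signal is part of each value and compresses differences of dim genes.

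Of 35556 probe sets, 21789 name 1 symbol, 1621 several and 12146 none in the platform annotation. Symbols were updated to RefSeq GRCm38.p6 names, and 21698 matched. For the 999 genes with several probe sets the one with the highest mean was kept, which left 19938 genes. A linear model with a mean for each of 7 groups was fitted to the 30 arrays with limma 3.58.1 (R 4.3.3, 23 residual degrees of freedom), and p-values were adjusted by Benjamini-Hochberg over all genes. A gene was called at adjusted p under 0.05.

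Named genes were the 15 largest differences each way among called genes whose groups did not overlap, the 10 largest each way against GFAP cortex tumors, members of 47 gene lists (872 distinct genes, 803 measured), and the 10 genes with the widest range among SYN1 tumors, all without predicted genes and clones. The comparison, its members and the lists were chosen with earlier results of these data known, and examples within a list and the gene families were picked after their values were seen. Sequences came from RefSeq tables of GRCm38.p6, which held 259 of the 297 miRNA genes. Alternatives changed the scaling, the filter, the probe set, the limma settings, the arrays in the fit, the threshold, the block on replicate number and a covariate. Trp53 and Hras are not analysed here.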

Additional observations from a re-analysis of the deposited data

Results flagged for a closer look

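Among groups of 4 arrays, 206 were tested for 1 array far from the others, and 15 were flagged, 6 among SYN1 tumors and 9 in normal cortex. Chance flags about 1 in 20 such groups. In SYN1 tumors, Prl5a1 was 10.31 in tumor 4, with 5.58 to 5.76 in the others, Cmya5 was 6.43 in tumor 4, with 6.75 to 6.8 in the others, and Eif2s3y was 5.02 in tumor 1, with 4.27 to 4.35 in the others. Tumor 3 was the far array for the mean level, relative to normal cortex, of the GABA-A receptor genes (-3.86, others -2.68 to -2.48), the projection neuron transcription factors (-2.16, others -1.92 to -1.88) and the pan-neuronal genes (-2.94, others -2.11 to -2.0). In normal cortex, array 1 stood apart in sex-linked genes, with Xist at 11.17 (others 5.49 to 5.96), Eif2s3y at 4.75 (others 8.97 to 9.05), Kdm5d at 5.88 (others 8.09 to 8.30), Uty at 4.99 (others 8.48 to 8.58) and the mean of the 4 sex-linked genes at -0.89 (others 0.20 to 0.39). Normal cortex 1 was also far from the others for the projection neuron factors (0.079, others -0.03), normal cortex 2 for the immediate early genes (0.43, others -0.16 to -0.13), and normal cortex 3 for the MHC genes (-0.16, others 0.03 to 0.07) and for Raet1d (5.23, others 5.71 to 5.81).

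SYN1 and GFAP cortex tumors differed by the limma test of their difference in these named genes, higher in SYN1 tumors for Prl8a9 (2.18), Kcnn4 (1.85), Slc25a21 (1.72), Lncenc1 (1.69), Oasl1 (1.62), Stac (1.57), Adcy7 (1.53), Tslp (1.38), Efnb1 (1.23) and Spin4 (1.19), and lower for Lbp (-1.30), Fgfr2 (-1.26) and Cmya5 (-0.61). The pattern of sex-linked genes divides the same arrays and cannot be told apart from the promoter.

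Probe sets that name several symbols or none stayed outside the comparison. Of these 13767, 1928 were called between SYN1 tumors and normal cortex (14.0%), 1139 higher and 789 lower in SYN1 tumors.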

How the results depend on the processing

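Against normal cortex the count of 7723 genes stayed within 1.5 times under each alternative other than a 2-fold minimum, which left 4283 genes (2032 higher, 2251 lower). Leaving out 1 array at a time gave 6878 to 7434 genes, 3106 to 3736 higher and 3657 to 4012 lower. With the Xist level as a covariate, chosen after the data were seen, 6070 genes were called, 2464 of them higher. Of 129 named genes called, 111 were called in all 18 settings, and no named gene reversed its sign where it was called. With the Xist covariate 14 named genes lost their call, among them the 3 Y-linked genes. Leaving out 1 array ended the call once for Igf2, Notch1 and Ndufa10, and under several omissions for Cck, Tubb3, Uqcrc2 and Aif1.

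The comparison with GFAP cortex tumors, 35 genes with 30 higher and 5 lower, moved under most settings. Array weights gave 2489 genes (951 higher, 1538 lower), leaving out GFAP cortex tumor 1 and GFAP hippocampus tumors 5 to 7 gave 2655 (1106 higher, 1549 lower), and median centring 67 (58 higher, 9 lower). Quantile normalization gave 18 higher and 8 lower genes, a trend with robust eBayes 13 (11 higher, 2 lower), only the arrays compared 4 (1 higher, 3 lower), adjusted p under 0.01 left 1 (1 higher, 0 lower), and a 2-fold minimum 21 (18 higher, 3 lower). The Xist covariate left 0 genes (0 higher, 0 lower) by limma. With it 903 of the 19938 genes had an unadjusted p under 0.05, not more than that threshold gives when no gene differs. Since Xist divides the SYN1 from the GFAP cortex tumors completely, this fit is a weak test of the promoter. Leaving out 1 array gave 1 to 1132 genes, 1 to 232 higher and 0 to 900 lower. The highest count came without GFAP cortex tumor 1 and the lowest without GFAP cortex tumor 2 or SYN1 tumor 3, with 66 without SYN1 tumor 1, 6 without SYN1 tumor 2 and 7 without GFAP cortex tumor 3. The cause was not tested.

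Whether replicate numbers pair the arrays is not given in the labels, and the values do not settle it. Deviations of same-numbered arrays correlated at 0.02, -0.05, 0.06 and 0.03 between SYN1 tumors and normal cortex. Between SYN1 and GFAP cortex tumors they correlated at -0.19, 0.32, -0.36 and 0.38. SYN1 tumor 3 correlated best with its own number in normal cortex, and SYN1 tumors 2 and 4 did so in GFAP cortex tumors. The other numbers were not best matches. With the replicate number as a block 8859 genes were called against normal cortex and 950 against GFAP cortex tumors (845 higher, 105 lower). The number of arrays and the signal of dim probe sets over background limit what could be detected.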

Other observations

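Normal cortex arrays differed among themselves in the genes that were high in SYN1 tumors. For the 178 genes called at least 8-fold higher in SYN1 tumors, the median signal relative to the mean of normal cortex was 3.59, 3.27, 3.69 and 3.77 in SYN1 tumors 1 to 4, against -0.14, 0.17, -0.17 and 0.15 in normal cortex 1 to 4. Normal cortex 2 and 4 were thus the higher ones, and they were also the higher ones for Timp1, at 8.05 and 8.73 beside 6.37 and 6.63 in normal cortex 1 and 3. The same held for Tnc, at 8.51 and 9.05 beside 7.63 and 7.12, for Lyz2, at 8.53 and 8.77 beside 7.80 and 7.43, and for Vim, at 11.97 and 11.82 beside 10.89 and 10.84. These genes were picked after their values were seen. Over all 19938 genes the medians of normal cortex 1 to 4 were 0.04, 0.00, 0.00 and -0.03 relative to their mean. For the 224 genes called at least 8-fold lower, SYN1 tumors had -3.37, -2.75, -4.02 and -3.20, against 0.13, -0.01, -0.04 and -0.08 in normal cortex, lowest in tumor 3 and highest among the tumors in tumor 2.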
